A study of Mus musculus with 6 samples.

Results

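Lysosomes are the acidic compartments in which cells take apart worn-out proteins, lipids, sugars and nucleic acids, and 47 genes that encode their hydrolases, membrane proteins and proton pump were followed here in the injured optic nerve. The 47 were picked by gene symbol for their lysosomal role, with earlier results of these data known. Each of them was found among the 25755 genes of the deposited expression table. RNA was sequenced in bulk from the optic nerves of 3 mice with sham surgery (mice 1, 2 and 3) and 3 mice with optic nerve crush, ON-CR (mice 4, 5 and 6), in which the nerve was squeezed behind the eye with forceps. All 6 mice were NF1flox/flox;hGFAP-Cre animals, so both groups lacked Nf1 in cells derived from neuroglial progenitors, where the human GFAP promoter drives Cre, and no mouse with intact Nf1 was measured here. Surgery was at 6 weeks of age and the nerves were taken at 12 weeks, which the labels give as 3 months. The study reports that crushed nerves of this genotype held optic gliomas by the age of analysis. It also reports more dividing cells, tumour-associated monocytes and T cells in them than after sham surgery. The sample labels do not say whether the sequenced nerves held tumour, and its part in the differences below was not tested. The comparison asks which lysosome transcripts differ between crushed and sham-operated nerves some weeks after the injury.

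A lysosome works only when several parts are present together. The V-type proton pump, made of a membrane ring sector (V0) and a cytosolic ATP-splitting sector (V1), acidifies the interior, soluble hydrolases cut the cargo in sequence, and membrane proteins protect the wall and carry products out. The transcription factors TFEB and TFE3 are known to switch many of these genes on together through a short promoter element, the CLEAR element, whose core is an E-box. In nerve tissue, microglia and macrophages are known for high lysosome content because they take up myelin and dead cells, and inherited loss of many of these enzymes causes storage diseases with damage to white matter.

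The groups differed in more than the lysosome genes. The libraries held 17414035 to 23620997 estimated reads, and each ON-CR library was shallower than each sham library. The myelin gene Mbp and the astrocyte gene Gfap, which mark the labelled tissue, were abundant in all 6 libraries. Of 10 oligodendrocyte markers, all 10 had a negative log2 fold change in ON-CR against sham, and 8 were called lower (limma adjusted p at or under 0.05). The summed value of the 10 was 0.425 of that in sham. Of 12 microglia and macrophage markers, 4 were called higher (Aif1, C1qa, C1qb and Tyrobp), while the homeostatic markers P2ry12 and Tmem119 were not. Among these 12, 10 had a positive and 2 a negative log2 fold change, and no marker of the list was at 0. Their summed value was 16648 to 21648 in sham nerves and was 31858, 22097 and 35968 in mice 4, 5 and 6. In bulk RNA, more or fewer cells of a type and more or less RNA per cell cannot be told apart. Mouse 5 had a neuron marker sum of 6756, above the 833 to 2651 of the other mice, and mouse 6 had an Igkc value, a plasma cell transcript, of 83710 against 48.2 to 1602 elsewhere. Xist, transcribed from the inactive X chromosome, was 2.14 to 30.9 in sham nerves and 2708 to 6357 in ON-CR nerves, and the Y-linked Ddx3y was 1291 to 1645 in sham nerves and was 976, 4.19 and 0 in mice 4, 5 and 6. Mouse 4 therefore held both transcripts, and the labels do not say whether a sample could hold nerves of more than 1 animal. The study's methods for optic nerve RNA and qPCR give more than 1 mouse per sample, and those for sequencing do not say. Sex-linked differences and the surgery cannot be told apart.

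By the time of analysis the lysosome genes had not moved as 1 block. Of them, 3 rose (Cd63, Laptm5 and Grn) and 3 fell (Mcoln1, Naglu and Tfeb). None of the 10 proton pump members was called, which for 10 genes is not read as a result about the pump. In limma on log2(normalized value + 1), with Benjamini-Hochberg adjustment over all genes, 6 of 47 members (12.8%) had an adjusted p at or under 0.05, against 2.1% of all genes tested. By direction, 6.38% of members were higher, against 0.971% of all genes, and 6.38% were lower, against 1.13%. The members were chosen with earlier results of these data known, so these shares are not an independent test. Every member was expressed well above the low end of the table, and among the 8772 genes with a mean value at least as high as that of the lowest member, 4.45% were called (1.57% higher and 2.87% lower), a background chosen after seeing the data. The members' log2 fold changes ran from -1.12 to 1.11, 27 were positive and 20 negative, and their median was 0.06 beside 0.03 over all genes.

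**Figure D1:**
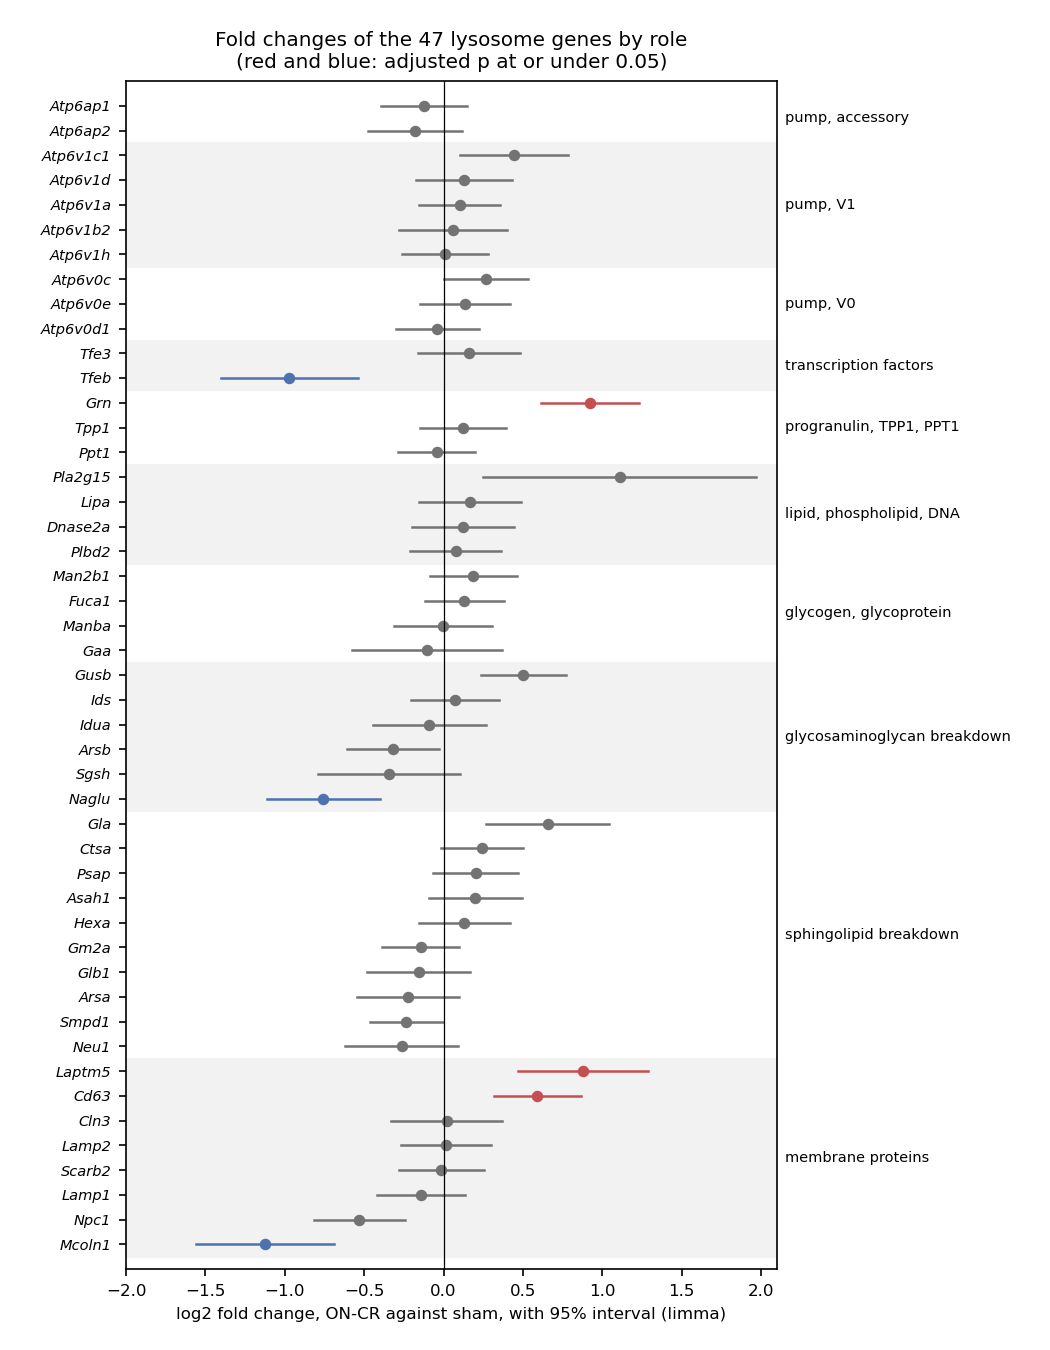
Log2 fold change of ON-CR against sham for each of the 47 lysosome genes (points) with its 95% interval from limma (lines), grouped by role. The red genes Cd63, Laptm5 and Grn and the blue genes Mcoln1, Naglu and Tfeb had an adjusted p at or under 0.05, and the 10 pump genes lie between -0.18 and 0.44.

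These calls rest on few animals. With a mouse left out, the number of called members was 1 without mouse 1 (Grn), 0 without mouse 2, 2 without mouse 3 (Mcoln1 and Tfeb), 4 without mouse 4 (Grn, Mcoln1, Naglu and Tfeb), 5 without mouse 5 (all but Naglu) and 0 without mouse 6. Without mouse 2 or mouse 6, 11 and 9 members had an unadjusted limma p under 0.05. Counts at that threshold alone, here and below, have no share of all genes beside them and are not read as a result. The direction of the 6 called members was the same in all 78 values from the 13 alternative settings. The groups of these 6 did not overlap, so leaving out a mouse could not have turned it, and this sameness is no support for the calls. In 14 members (29.8%) the 3 values of one group all lay above the 3 of the other, against 21.6% of all genes, and 8 of these were higher in ON-CR (17.0% against 10.5%) and 6 lower (12.8% against 11.0%). Among the genes of at least the lowest member's mean the share without overlap was 30.7% (10.4% higher and 20.3% lower), close to that of the members. The study's methods state a filter of p at or under 0.05 with at least a 2-fold change, applied there to DESeq2 results. Its results section names a stricter filter, which was not applied here. With the unadjusted limma p in place of DESeq2, 2 members passed the first filter, Pla2g15 as higher and Mcoln1 as lower. That is 4.26% beside 4.66% of all genes (3.17% higher and 1.49% lower) and 2.23% of the genes of like level (1.17% higher and 1.06% lower).

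Summed over the 47 genes, the normalized signal was 132606 ± 9721 (SD, n = 3) in sham and 148269 ± 9613 (SD, n = 3) in ON-CR nerves, and the values of the groups overlapped (exact permutation test, two-sided, p = 0.2). As a share of all signal the members took 0.671%, 0.640% and 0.633% in mice 1, 2 and 3 and 0.777%, 0.764% and 0.838% in mice 4, 5 and 6. Each ON-CR share lay above each sham share (exact permutation test, two-sided, p = 0.1, the smallest that 3 against 3 mice allow). The denominator of that share includes the very abundant myelin transcripts, which were lower in ON-CR, and its part in the share was not tested.

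Promoter sequences were searched for the E-box that the TFEB family is known to bind. RefSeq promoter windows on GRCm38.p6, from 250 bases before to 50 after the start site, were found for 41 of the 47 members and not for Asah1, Atp6v1b2, Atp6v1c1, Atp6v1h, Npc1 and Plbd2. The E-box CACGTG, which reads the same on both strands, stood in 13 of the 41 (31.7%), against 8.09% of 27025 promoter symbols and 10.6% of the 14328 of them that are in the expression table. The longer TCACGTGA, which contains CACGTG, stood in 7 of the 41 (17.1%), against 1.12% and 1.77%, and the form with GT before and AC after the E-box stood in Cln3 alone, against 0.37% and 0.61%. The windows below are given for the 2 E-box genes that fell (Mcoln1 and Naglu), for the 7 genes with the longer form, and for Lamp1, which has 4 copies. They read 5′ to 3′ along the gene's strand, with CACGTG in capitals and all other bases in lower case.
Mcoln1, upstream stretch, chr8:3500269-3500456, plus strand: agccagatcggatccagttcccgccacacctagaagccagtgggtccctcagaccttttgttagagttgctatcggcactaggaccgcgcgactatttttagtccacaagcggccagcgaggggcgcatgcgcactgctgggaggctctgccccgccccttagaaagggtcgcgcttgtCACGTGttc
Mcoln1, second copy, chr8:3500462-3500491, plus strand: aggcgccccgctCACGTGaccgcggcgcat
Naglu, chr11:101070009-101070038, plus strand: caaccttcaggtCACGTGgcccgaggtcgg
Lamp1, chr8:13159088-13159163, plus strand: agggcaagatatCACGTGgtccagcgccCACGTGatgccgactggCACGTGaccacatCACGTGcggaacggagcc
Cln3, chr7:126583340-126583369, minus strand: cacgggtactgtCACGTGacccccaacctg
Gla, chrX:134601215-134601244, minus strand: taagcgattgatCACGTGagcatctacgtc
Gla, second copy, chrX:134601182-134601211, minus strand: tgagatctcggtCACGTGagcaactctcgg
Ctsa, chr2:164833749-164833778, plus strand: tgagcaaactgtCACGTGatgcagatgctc
Atp6v0d1, chr8:105566050-105566079, minus strand: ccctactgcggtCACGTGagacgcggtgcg
Atp6v0e, chr17:26676387-26676416, plus strand: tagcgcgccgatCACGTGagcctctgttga
Atp6v1a, chr16:44139373-44139402, minus strand: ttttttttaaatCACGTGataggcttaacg

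Cln3 and Ctsa each hold 2 copies, of which 1 is shown. The remaining E-box genes were Arsa, Gaa, Glb1 and Sgsh. The second Mcoln1 window and most of the Naglu window lie in the first annotated exon, and the Mcoln1 stretch ends at the base before the gene begins. Of the 13 E-box genes, 2 were called, both lower (Mcoln1 and Naglu), and their median log2 fold change was -0.10. Of the 28 members whose window lacks these letters, 3 were called higher (Cd63, Laptm5 and Grn) and 1 lower (Tfeb), with a median of 0.12. Over all genes 2.1% were called, 0.971% higher and 1.13% lower. The difference between the 13 and the 28 was not tested, and these few calls are not read as a result about E-box genes. A match is a string of letters, and no factor was measured at any of these windows.

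**Figure D2:**
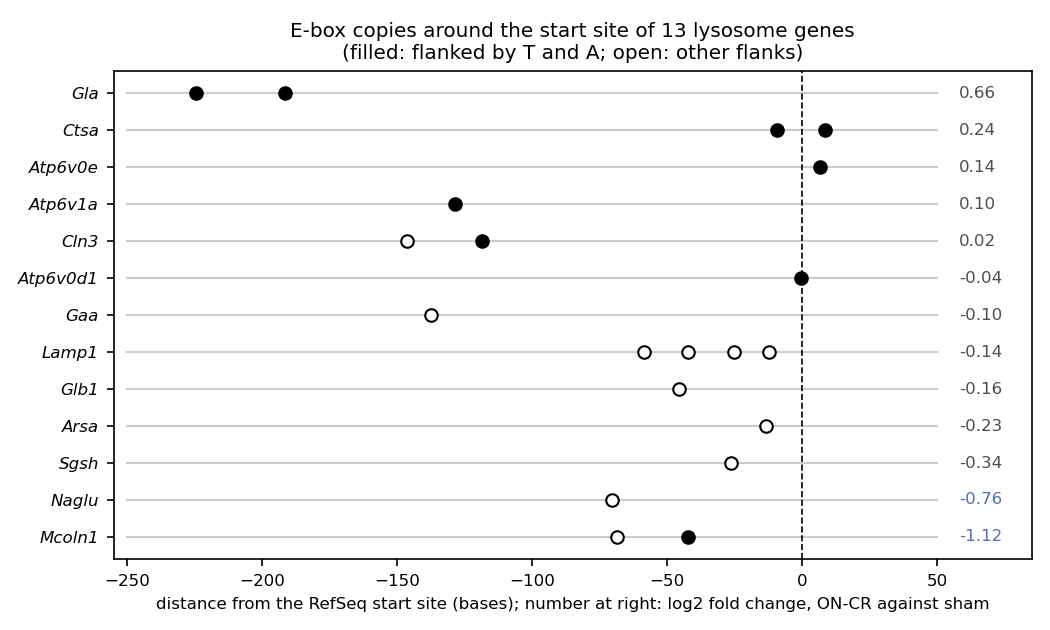
Position of each E-box copy (circles) in the promoter windows of the 13 members that hold one, in bases from the RefSeq start site (dashed line), with filled circles for copies flanked by T and A. The log2 fold change stands at the right, from -1.12 for Mcoln1 to 0.66 for Gla, and the copies of Lamp1, Ctsa, Atp6v0d1, Atp6v0e, Arsa and Sgsh are close to the start.

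Of the 2 transcription factors among the members, Tfeb fell and Tfe3 did not pass the test, and the difference between them was not tested. Tfeb (chr17:47737030-47792419, plus strand), which is known to drive lysosome biogenesis when it enters the nucleus, was 733, 761 and 535 in mice 1, 2 and 3 and 419, 272 and 346 after ON-CR in mice 4, 5 and 6. All 3 ON-CR nerves were below all 3 sham nerves, and Tfeb fell by 0.97 ± 0.19 (SE) on the log2 scale (limma adjusted p = 0.0336, 0.0266 to 0.192 with a mouse left out). Tfe3, its X-linked relative, was 411, 542 and 494 in sham and 567, 535 and 506 in ON-CR, and these values overlapped (log2 fold change 0.16 ± 0.14, adjusted p = 0.646). TFEB is known to be controlled largely by phosphorylation and location, which RNA does not show. The falls of Tfeb, Mcoln1 and Naglu lay beside those of the oligodendrocyte markers, whose part in them was not tested. RefSeq gives Tfeb more than 1 start, and the stretch before the first of them is shown because it lies upstream of the factor's whole gene. It holds no CACGTG.
Tfeb, chr17:47736787-47737029, plus strand: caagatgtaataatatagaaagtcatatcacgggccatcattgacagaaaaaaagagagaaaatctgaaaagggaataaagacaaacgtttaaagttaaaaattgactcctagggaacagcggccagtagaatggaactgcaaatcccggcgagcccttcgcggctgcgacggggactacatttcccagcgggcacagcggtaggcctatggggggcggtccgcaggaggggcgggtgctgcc

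Among the 8 membrane proteins, Cd63 and Laptm5 rose, Mcoln1 fell, and the major wall proteins Lamp1, Lamp2 and Scarb2 did not pass the test. Cd63 (chr10:128900989-128912822, plus strand) encodes a tetraspanin of lysosomes and of the vesicles that form inside late endosomes. Its values were 12006, 11687 and 11000 in mice 1, 2 and 3 and 17571, 15201 and 19766 in mice 4, 5 and 6. The lowest ON-CR nerve was above the highest sham nerve, and Cd63 rose by 0.59 ± 0.12 (SE) on the log2 scale (limma adjusted p = 0.0403, 0.0166 to 0.206 with a mouse left out). A processed pseudogene, Cd63-ps, matches 849 bases of it at 98.4% identity, and its values were 1396, 1482 and 1669 in sham and 2500, 2175 and 2909 in ON-CR. Reads of the 2 copies may be shared, and Cd63 and Cd63-ps summed gave 0.61 (adjusted p = 0.0372). Cd63 also had the highest level of the 47 members per kilobase of transcript, 10428 ± 464 in sham and 15792 ± 2059 in ON-CR (normalized value per kb, SD, n = 3).

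Laptm5 (chr4:130913125-130936141, plus strand) encodes a lysosomal transmembrane protein of blood-derived and microglial cells. It was 4772, 4101 and 3941 in mice 1, 2 and 3 and 9169, 5656 and 9237 in mice 4, 5 and 6. Mouse 5 was nearest to sham, though still above each sham nerve, and Laptm5 rose by 0.88 ± 0.18 on the log2 scale (adjusted p = 0.0401, 0.00135 to 0.234 with a mouse left out). Mouse 5 was also the lowest ON-CR nerve for Cd63, for Grn and for the summed microglia markers, and the part of those markers in the 3 rises was not tested.

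Mcoln1 (chr8:3500457-3515232, plus strand) encodes TRPML1, the cation channel through which lysosomes release calcium. It was 438, 661 and 412 in mice 1, 2 and 3 and 247, 225 and 206 in mice 4, 5 and 6. The ON-CR nerves lay close together at 226 ± 20.9 (SD, n = 3) while mouse 2 stood above the other sham nerves. Mcoln1 fell by 1.12 ± 0.19 on the log2 scale (adjusted p = 0.0190, 0.0198 to 0.142 with a mouse left out). Its relatives Mcoln2 and Mcoln3 were low, at most 49.8 and 10.6 in any mouse, and were not called.

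Npc1, which exports cholesterol from the lysosome, was 3007, 3452 and 2801 in sham and 2441, 1926 and 2046 in ON-CR. The groups did not overlap, but the log2 fold change of -0.53 ± 0.13 missed the threshold (adjusted p = 0.0703), which it reached only in the robust fit (0.0496). Lamp1, the abundant glycoprotein of the lysosome wall, was 4952, 4510 and 3805 in sham and 4187, 3649 and 4142 in ON-CR, with a log2 fold change of -0.14 and a 95% interval of -0.42 to 0.14. The remaining 3, Lamp2, Scarb2 (which carries glucocerebrosidase to the lysosome) and Cln3, had log2 fold changes between -0.01 and 0.02.

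**Figure D3:**
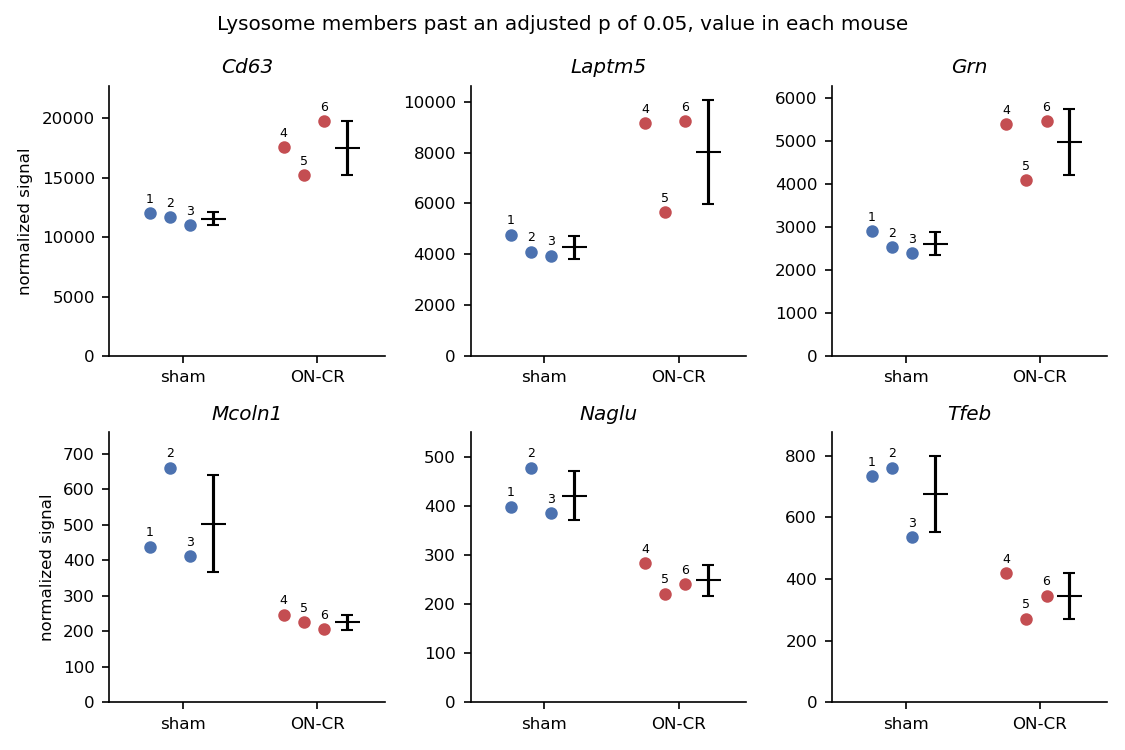
Normalized signal of the 6 called members in each mouse (numbered points), with the group mean and SD (n = 3) to the right of the points. For Cd63, Laptm5 and Grn each ON-CR nerve lies above each sham nerve, and for Mcoln1, Naglu and Tfeb each lies below.

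Progranulin and 2 enzymes of protein turnover formed a small group in which Grn alone moved. Grn (chr11:102430315-102437048, plus strand) encodes progranulin, a secreted protein that is cut into granulins inside lysosomes and whose loss causes neuronal ceroid lipofuscinosis. It was 2912, 2529 and 2400 in mice 1, 2 and 3 and 5396, 4093 and 5470 in mice 4, 5 and 6. Grn rose by 0.92 ± 0.14 on the log2 scale, the smallest adjusted p among the members (0.00924, 0.00167 to 0.0972 with a mouse left out). Fam171a2 overlaps it on the other strand and was low, at 5.64 to 15.1 in the 6 mice. The peptidase Tpp1 was 2612 to 3162 in sham and 2783 to 3354 in ON-CR, and was not called. Ppt1, which removes fatty acids from proteins and had the highest level per kb in this group in sham (1366 ± 122), was 3570, 3185 and 3000 in sham and 3044, 3089 and 3314 in ON-CR (log2 fold change -0.04, 95% interval -0.29 to 0.20).

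Of the 6 enzymes that cut glycosaminoglycans, the sulfated sugar chains of the extracellular matrix, Naglu was called lower and none was called higher. Naglu (chr11:101070012-101077672, plus strand), which removes N-acetylglucosamine from heparan sulfate, was 399, 478 and 385 in mice 1, 2 and 3 and 283, 221 and 241 in mice 4, 5 and 6. The highest ON-CR nerve was below the lowest sham nerve, and Naglu fell by 0.76 ± 0.16 on the log2 scale (adjusted p = 0.0418, 0.0466 to 0.222 with a mouse left out). Gusb, beta-glucuronidase, was 836, 736 and 811 in sham and 1230, 1062 and 1087 in ON-CR. Its groups did not overlap, and its log2 fold change of 0.50 ± 0.12 had an adjusted p of 0.0647, which became 0.0360 with sample quality weights. Arsb, which desulfates dermatan sulfate, was 1103, 1036 and 999 in sham and 952, 850 and 729 in ON-CR, again without overlap (log2 fold change -0.32 ± 0.13, adjusted p = 0.274). The other heparan sulfate enzymes Sgsh, Ids and Idua had log2 fold changes of -0.34, 0.07 and -0.09 and overlapping values. The order of level per kb in sham began with Gusb (295 ± 19.4), Arsb (259 ± 13.1) and Naglu (164 ± 19.6).

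None of the 10 genes of sphingolipid breakdown was called by limma after adjustment, beside 2.1% of all genes. An unadjusted p under 0.05 was found for 2 of the 10 (Gla and Smpd1). Gla, the X-linked alpha-galactosidase that is missing in Fabry disease, was 236, 217 and 170 in sham and 325, 296 and 355 in ON-CR. Every ON-CR nerve was above every sham nerve, and the log2 fold change of 0.66 ± 0.17 had an adjusted p of 0.0912. Smpd1, acid sphingomyelinase, was 3164, 3240 and 2900 in sham and 2713, 2688 and 2507 in ON-CR (log2 fold change -0.23 ± 0.10, adjusted p = 0.311).

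Psap, the precursor of the saposins that present lipids to these enzymes, was 15071, 15325 and 14573 in sham and 15461, 16750 and 19771 in ON-CR. The groups did not overlap although mouse 4 lay just above mouse 2, and the log2 fold change was 0.20 ± 0.12 (adjusted p = 0.467). Psap had the highest level per kb in this group, 5642 ± 144 in sham and 6521 ± 833 in ON-CR. The 3 partners of one multienzyme complex, Ctsa, Neu1 and Glb1, had log2 fold changes of 0.24, -0.26 and -0.16, and none was called. Arsa, the sulfatide enzyme that is missing in metachromatic leukodystrophy, was 530 to 732 in sham and 510 to 549 in ON-CR. Hexa, its activator Gm2a and the ceramidase Asah1 had log2 fold changes of 0.13, -0.14 and 0.20.

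Among the enzymes for glycogen, glycoproteins, lipids and DNA, Pla2g15 had the largest fold change and the widest spread. This lysosomal phospholipase A2 was 702, 181 and 459 in mice 1, 2 and 3 and 936, 736 and 857 in mice 4, 5 and 6. The sham nerves alone spanned almost the whole distance to the ON-CR group, and the log2 fold change of 1.11 ± 0.39 had an adjusted p of 0.192. Fuca1, alpha-fucosidase, had the highest level per kb of the glycoprotein enzymes (1509 ± 40.8 in sham) and was 3922, 3794 and 3718 in sham and 4259, 3696 and 4618 in ON-CR. Lipa, lysosomal acid lipase, led the lipid and DNA group per kb (425 ± 5.63 in sham) and was 1246, 1260 and 1279 in sham and 1768, 1216 and 1325 in ON-CR. In Lipa, mouse 4 alone stood above the rest (log2 fold change 0.17 ± 0.14, adjusted p = 0.632). Gaa, which splits glycogen, was highest in mouse 5 (5818) and 3227 and 3697 in the other ON-CR mice, so its groups overlapped. The glycoprotein enzymes Man2b1 and Manba had log2 fold changes of 0.19 and -0.005, and Plbd2 and the deoxyribonuclease Dnase2a of 0.08 and 0.12.

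Of the 10 proton pump members, 0 were called by limma after adjustment, beside 2.1% of all genes. At that share so few genes would often hold no call, so this does not show that they were unchanged. An unadjusted p under 0.05 was found for 2 of them (Atp6v0c and Atp6v1c1). The 10 genes had log2 fold changes from -0.18 to 0.44 and a median of 0.08. Their summed signal was 39392, 35408 and 32248 in sham and 35450, 38651 and 38969 in ON-CR. Atp6v0c, the ring subunit through which protons pass, was 9745, 8409 and 7908 in sham and 9545, 10877 and 10822 in ON-CR (log2 fold change 0.26 ± 0.12, adjusted p = 0.320). It had the second highest level per kb of all members, 7344 ± 803 in sham, and a pseudogene, Atp6v0c-ps2, matches it at 99.8% identity over 465 bases. Atp6v1c1, which holds the V1 stalk to the membrane sector, was 1502, 1206 and 999 in sham and 1506, 1751 and 1731 in ON-CR. Mouse 4 barely exceeded mouse 1, and the log2 fold change of 0.44 ± 0.15 had an adjusted p of 0.189.

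The other V1 genes, Atp6v1a, Atp6v1b2, Atp6v1d and Atp6v1h, had log2 fold changes from 0.01 to 0.13. Atp6v1h, the regulatory subunit with the highest level per kb in V1 (1091 ± 128 in sham), was 2533, 2140 and 2036 in sham and 2038, 2371 and 2332 in ON-CR (95% interval -0.26 to 0.28). Atp6v1b2, the B subunit of brain, was 2131 in mouse 5 against 1466 and 1565 in the other ON-CR nerves and 1465 to 1787 in sham. Mouse 5 was the nerve with the high neuron markers, whose part in this value was not tested. The accessory proteins Atp6ap1, at 10571, 9419 and 8151 in sham and 8523, 8226 and 8961 in ON-CR, and Atp6ap2 had log2 fold changes of -0.12 and -0.18. The remaining V0 genes Atp6v0d1 and Atp6v0e stood at -0.04 and 0.14.

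**Figure D4:**
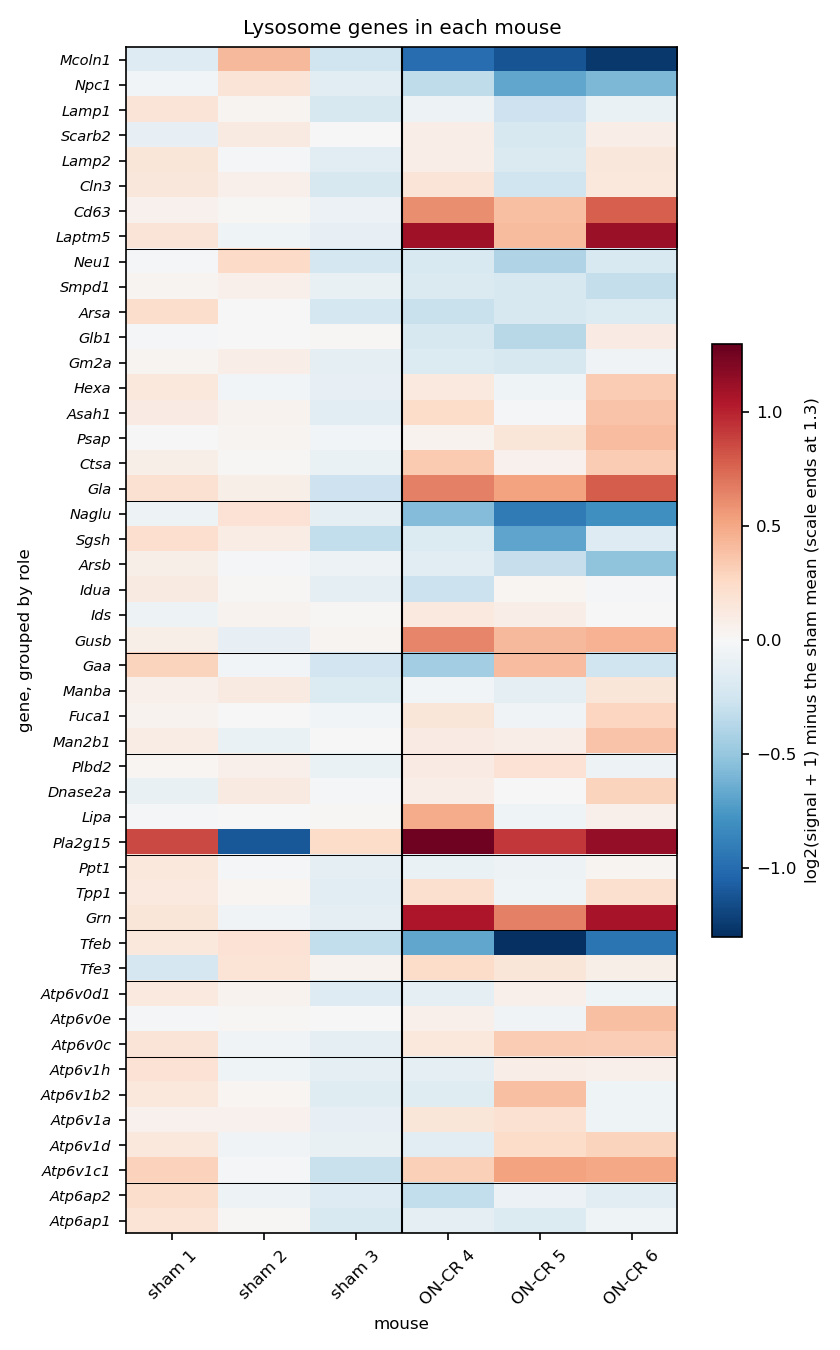
Each cell is a mouse's log2(normalized signal + 1) minus the sham mean of that gene, for the 47 members in rows grouped by role and the 6 mice in columns. Laptm5 and Grn are red and Mcoln1 and Tfeb blue in all 3 ON-CR columns, and Pla2g15 varies among sham mice. The pump rows at the foot are mostly pale, with Atp6v1c1 at 0.52 and 0.51 in mice 5 and 6.

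The 6 X-linked members (Lamp2, Gla, Ids, Tfe3, Atp6ap1 and Atp6ap2) were set apart because Xist and Ddx3y differed between the groups. By limma 0 of them were called, beside 2.1% of all genes, and 1 had an unadjusted p under 0.05 (Gla). Their median log2 fold change was 0.04, beside 0.06 for the 41 autosomal members, which held all 6 calls. With so few X-linked members, this split cannot separate sex-linked differences from the surgery. Several members share exon sequence with a neighbour on the other strand (Cln3 with Apobr, Ctsa with Neurl2 and Pltp, Hexa with Tmem202, Npc1 with Rmc1, Sgsh with Card14, and Dnase2a with Mast1). The use of strand in the counting is not given in the sources used here, so reads of such pairs may not be separated.

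Outside the 47, lysosome genes also held a few rises and a few falls. Of 100 further lysosome genes that are not among the 47, 97 were in the table, 6 were called higher and 3 lower, beside 0.971% and 1.13% of all genes, and their median log2 fold change was 0.00 beside 0.03 over all genes. Cd68, the lysosomal glycoprotein by which phagocytes are recognised, was 794, 622 and 617 in sham and 2650, 1822 and 2654 in ON-CR. Cd68 rose by 1.80 ± 0.17 on the log2 scale (adjusted p = 0.00128) and was the one gene of the 9 still called with any mouse left out. The transporters Slc11a1, a metal exporter of phagosomes, and Slc15a3, a peptide and histidine carrier, rose by 1.53 ± 0.23 and 2.20 ± 0.32 (adjusted p = 0.00926 and 0.00846). Slc11a1 was 277, 243 and 228 in sham and 902, 476 and 862 in ON-CR. Slc15a3 was 33.7, 42.1 and 38.5 in sham and 249, 106 and 212 in ON-CR. Mouse 5 was again the lowest ON-CR nerve for all 3, as for the microglia marker sum, whose part in these rises was not tested.

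**Figure D5:**
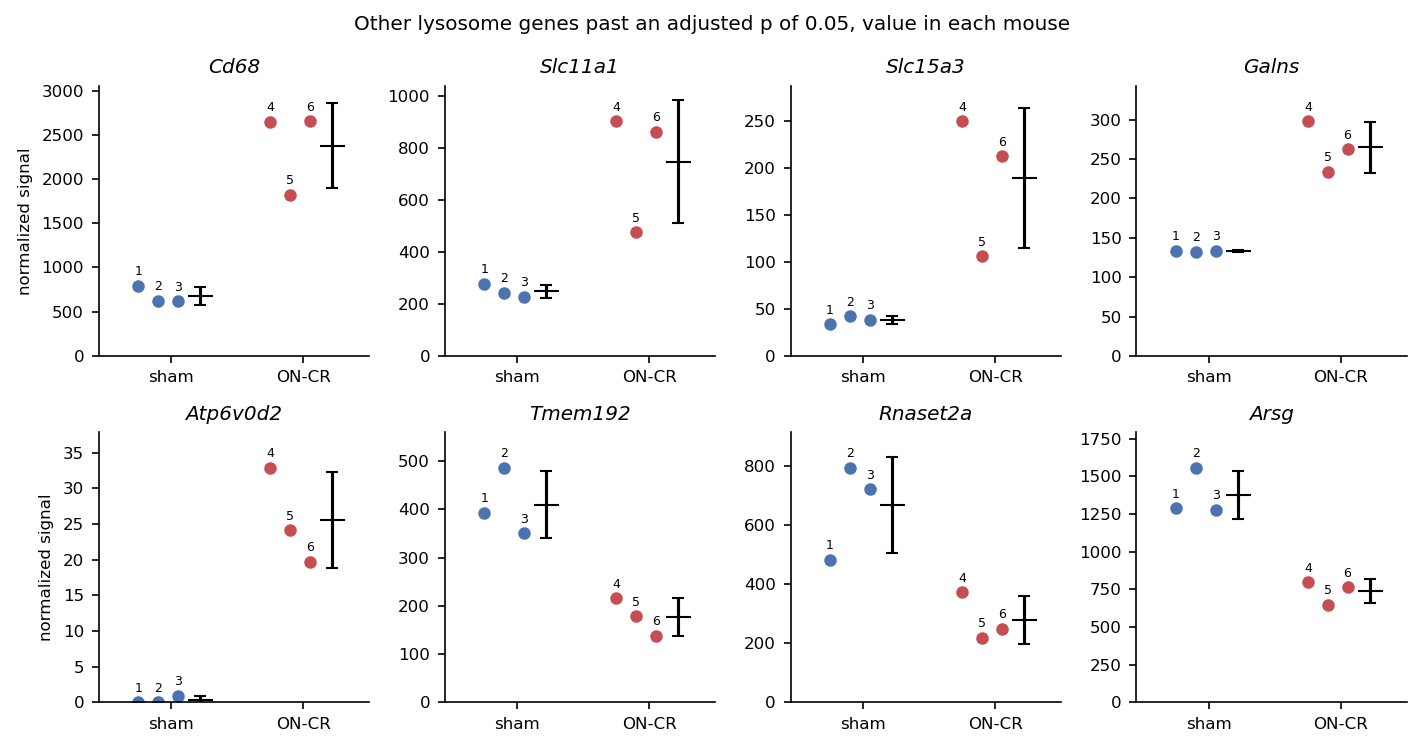
Normalized signal of 8 further lysosome genes that were called, in each mouse (numbered points), with the group mean and SD (n = 3). Cd68, Slc11a1, Slc15a3, Galns and Atp6v0d2 were higher in each ON-CR nerve than in each sham nerve, and Tmem192, Rnaset2a and Arsg lower.

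The alternative subunits of the pump show 1 gene that the members lack. Atp6v0d2, the d subunit of osteoclasts and some macrophages, was 0, 0 and 0.939 in sham, that is at most 1 estimated read, and 32.9, 24.1 and 19.7 in ON-CR. Its ON-CR mean was 8.86-fold the mean of the sham floors of 3 reads. Atp6v0d2 was called higher (limma adjusted p = 0.00604, and 0.0518 without mouse 6). Its ubiquitous twin Atp6v0d1 was 1729 to 2123 in sham and 1782 to 2038 in ON-CR. The a subunits Atp6v0a1, Atp6v0a2, Tcirg1 and Atp6v0a4 had log2 fold changes of -0.20, 0.31, 0.16 and 0.20, and none was called. Atp6v0b, Atp6v0e2, Atp6v1e1, Atp6v1f and Atp6v1g1 lay between -0.18 and 0.06. Atp6v1g2, the neuronal G subunit, was 1042 in mouse 5 and 196 to 477 in the other 5 mice. Atp6v1c2, Atp6v1e2 and Atp6v0a4 did not exceed 29.4 in any mouse.

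Among sulfatases outside the members, Galns rose and Arsg fell. Galns, the sulfatase of keratan sulfate, was 134, 132 and 133 in sham and 298, 234 and 262 in ON-CR, and rose by 0.98 ± 0.17 (adjusted p = 0.0188, 0.113 at most with a mouse left out). Arsg, a sulfatase of heparan sulfate, was 1290, 1558 and 1280 in sham and 799, 649 and 765 in ON-CR, and fell by 0.90 ± 0.13 (adjusted p = 0.00880). Of the heparan sulfate enzymes reported here, Naglu and Arsg fell, and Gusb, Ids, Idua, Sgsh and Hgsnat were not called.

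Of the 2 further genes that fell, Tmem192, a lysosomal membrane protein, was 393, 486 and 350 in sham and 216, 178 and 138 in ON-CR (fell by 1.21 ± 0.20, adjusted p = 0.0159). The ribonuclease Rnaset2a was 483, 793 and 721 in sham and 371, 218 and 248 in ON-CR (fell by 1.26 ± 0.24, adjusted p = 0.0260). Its near-identical copy Rnaset2b was 910, 873 and 795 in sham and 732, 372 and 529 in ON-CR, and reads of the 2 copies may be shared. The calls of Arsg were lost without mouse 2 or 6, those of Tmem192 without mouse 1, 2 or 6, those of Rnaset2a and Slc11a1 without mouse 2, 3 or 6, that of Slc15a3 without mouse 6, and that of Galns without any mouse but mouse 5.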

How the data were processed

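RNA from optic nerves of 3 sham and 3 ON-CR mice was sequenced from low-input SMARTer libraries. The authors quantified reads with DRAGEN on mm10 with Ensembl gene models and normalized counts by the median in Partek Flow (Partek 10.0 in the submitters' processing notes). The deposited values are a normalized signal per gene, one column per mouse, and 0 columns of other samples were present. Dividing by the value of 1 read left 69.6% to 71.6% of values whole within 0.05, so no count test was run, and the recovered reads served only for depth and for the floor of 3 reads (2.66 to 3.18), which covers counting error only. Depth was 17414035 to 23620997 reads.

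The test was limma 3.58.1 with a mean-variance trend (R 4.3.3) on log2(value + 1), without a filter on low values, with Benjamini-Hochberg adjustment over 25755 genes. A fold change on this scale is understated for low genes. The test was checked on simulated data. Samples were grouped by their labels, which number 1 mouse per sample and do not say whether nerves were pooled, so n = 3 counts samples. The 47 members, the other gene lists and the test were chosen with earlier results of these data known. All members are named, with values for those called, those without overlap between groups, the highest per kb in each role and the transcription factors. Levels per kb used the longest coding transcript of the GENCODE annotation of GRCm38, and similar copies were found with minimap2 2.31-r1302. Promoters are from RefSeq, GRCm38.p6.

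Alternatives were pseudocounts of 0.1 and 2, TMM and upper-quartile scaling, a mean of at least 10, a robust fit, sample quality weights and leaving out each mouse. The background matched on level and the sum of Cd63 with Cd63-ps were added after seeing the data. Results for some genes are not reported here.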

Additional observations from a re-analysis of the deposited data

How the results depend on the processing

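Counts of 6 called members were found under pseudocounts of 0.1 and 2, TMM and upper-quartile scaling and a mean of at least 10, and 7 under the robust fit and the sample weights. With a mouse left out, 0 to 5 members were called, 67 to 854 genes, and 0 to 4 members passed the study's filter. The 67 were without mouse 6, and counts without mice 1, 2, 3 and 5 were 192, 123, 258 and 854. No paired analysis was possible because the groups share no mouse number.

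Signs turned only in members near 0 that were not called. Manba became 0.0047 with TMM and 0.0114 with upper-quartile scaling. Scarb2 became 0.00297 with upper-quartile scaling and 0.00278 with weights. With weights, Atp6v1b2 became -0.00917 and Atp6v1h -0.00431. With a mouse left out, the lowest and highest values were -0.0528 to 0.12 for Lamp2, -0.0672 to 0.0841 for Scarb2, -0.0871 to 0.157 for Cln3, -0.153 to 0.0049 for Idua, -0.354 to 0.0713 for Gaa, -0.0956 to 0.0585 for Manba, -0.0995 to 0.0258 for Ppt1, -0.124 to 0.0241 for Atp6v0d1, -0.106 to 0.164 for Atp6v1b2 and -0.0543 to 0.103 for Atp6v1h. The cause was not tested. The 3 mice in a group limit the precision of every call.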

Other observations

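Of 9 genes that deliver enzymes to the lysosome (mannose 6-phosphate receptors, sortilin, the enzymes that make the mannose 6-phosphate tag, the sulfatase activator Sumf1, Cln6 and Cln8), limma called 0 after adjustment, and 3 had an unadjusted p under 0.05, all lower. Their median log2 fold change was -0.21 beside 0.03 over all genes, and 8 of the 9 were below 0. The shares of all genes at an unadjusted p under 0.05 or below 0 were not counted, so these counts are not read as a shared fall. Their summed signal was 9285 ± 436 (SD, n = 3) in sham and 7787 ± 370 (SD, n = 3) in ON-CR nerves. Of 16 genes in the table that sense nutrients at the lysosome or belong to the TFE family, limma called 0, and 3 had an unadjusted p under 0.05, 2 higher and 1 lower. Their median log2 fold change was 0.04, and their summed signal was 12011 ± 27.8 in sham and 11896 ± 66.1 in ON-CR nerves.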
